A study of Mus musculus with 6 samples.

Results

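The epithelial integrin subunits are 10 genes of cell-surface receptors that fasten epithelial cells to the matrix beneath them. They were taken from the gene table by symbol, ITGA2, ITGA3, ITGA5, ITGA6 and ITGAV for the α chains and ITGB1, ITGB4, ITGB5, ITGB6 and ITGB8 for the β chains, and all 10 were found among its 31456 rows. Total RNA was sequenced from HCT116, an established human colorectal carcinoma line, in an oxaliplatin-resistant form (3 libraries) and a parental form (3 libraries). Oxaliplatin, a platinum compound, damages DNA and is used against colorectal cancer. How the resistant cells were derived, whether drug was present at harvest and whether the libraries of a group were separate cultures are not given in the labels, so each p-value rests on library-to-library spread, which may be technical. The labels give the organism as mouse, whereas the identifiers and symbols in the tables are human.

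An integrin is a pair of 1 α and 1 β chain, and the pairing sets which matrix protein is bound. Integrin α2β1 binds collagen, α3β1, α6β1 and α6β4 bind laminin, α5β1 binds fibronectin, and the αv receptors bind proteins with an RGD motif such as vitronectin, fibronectin and the latency peptide of TGF-β. The β1 chain is shared by many α chains and αv by several β chains, whereas β4 pairs with α6 alone, in the hemidesmosomes that tie keratin filaments to the basement membrane. In colonic epithelium the laminin and collagen receptors hold cells on the basement membrane, and αvβ6 and αvβ8 release active TGF-β from its latent complex.

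Libraries held 20246878 to 32138423 counts. At the threshold used throughout (Benjamini-Hochberg adjusted p below 0.05, edgeR quasi-likelihood), 53.8% of 16605 genes were called, 27.3% higher and 26.5% lower in the resistant cells, so a call by itself is common in this comparison. Parental replicate 2 stood apart from the other parental libraries, with a chi-square per gene (near 1 for counting noise alone) of 11.2 and 10.7 against them, where the other parental pair had 1.98. Resistant replicate 2 was also the farther one in its group, at 4.13 and 4.47 against the other resistant libraries, which had 2.65 between them. The epithelial identity of the cells was checked on 10 colorectal epithelial markers, whose summed level was 2721 to 2862 CPM (a gene's counts scaled to a common library size) in resistant libraries and 2758 to 3106 CPM in parental libraries. KRT8, KRT18, KRT19, EPCAM and CDH1 were abundant, while CDX1 had at most 1 count and VIL1 at most 4 counts in a library. Markers of other cell types were low, at 40.6 to 46.7 CPM in resistant and 21.9 to 25.0 CPM in parental libraries for 9 fibroblast genes, nearly all of it COL1A1. The sum of 9 leukocyte genes, mainly CD68, was 18.4 to 21.0 CPM in resistant and 13.1 to 13.4 CPM in parental libraries, and that of 6 endothelial genes was 1.83 to 2.53 CPM in resistant and 1.83 to 2.43 CPM in parental libraries. Their part in the results was not tested. The defining fibroblast markers COL1A2, DCN and LUM had at most 2 counts in a library, the leukocyte marker PTPRC at most 2 and the endothelial marker CDH5 at most 1. Some other markers were higher in the resistant cells. Both tested fibroblast markers rose, COL1A1 and PDGFRB, and PDGFRB was counted 17, 13 and 15 times in resistant and 5, 6 and 2 times in parental libraries (log2 fold change 1.72, edgeR adjusted p = 0.0026). PDGFRB passed the low-count filter through the resistant group, with parental libraries at 0.183, 0.187 and 0.0988 CPM. Its level in the resistant group was thus a condition of its being tested. COL3A1, too low to test, was counted 5, 11 and 9 times in resistant and 1, 1 and 0 times in parental libraries. Both tested leukocyte markers rose, CD68 by 0.38 on the log2 scale (edgeR adjusted p = 0.0013) and ITGAM, described with the integrins. The endothelial marker TEK, too low to test, had 5, 3 and 5 counts in resistant and 0, 1 and 1 counts in parental libraries. The 2 tested endothelial markers, VWF and ENG, did not pass the threshold. ENG went the other way from TEK, lower in every resistant library (log2 fold change -0.63, edgeR adjusted p = 0.062).

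Of the 10 subunits 5 rose in the resistant cells (ITGAV, ITGA2, ITGB5, ITGB1 and ITGB6), 3 fell (ITGA3, ITGA6 and ITGB4) and 2 did not pass the threshold (ITGA5 and ITGB8). The rises reached 3.05-fold, and the falls were no larger than 1.22-fold. The called share of 8 in 10 stood beside 53.8% of all tested genes, and the subunits had a median log2 fold change of 0.29, beside 0.02 over the whole tested set. The called subunits other than ITGB6 had means above 85 CPM in both groups, whereas the low-count filter asked for only 0.381 CPM in at least 3 libraries. These shares were not matched for level. Without ITGB6, which entered the test through the resistant group and whose call was seldom kept, 4 of 9 subunits rose and 3 fell, with a median of 0.14 (a count added after the values were seen). With library sizes alone in place of TMM factors that whole-set median moved to 0.11, and 6 subunits were called higher and 2 lower. Of all calls 65.3% were then higher, against 50.8% in the TMM fit. In bulk RNA a change in the make-up of the cell population and a change of mRNA per cell cannot be told apart.

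**Figure D1:**
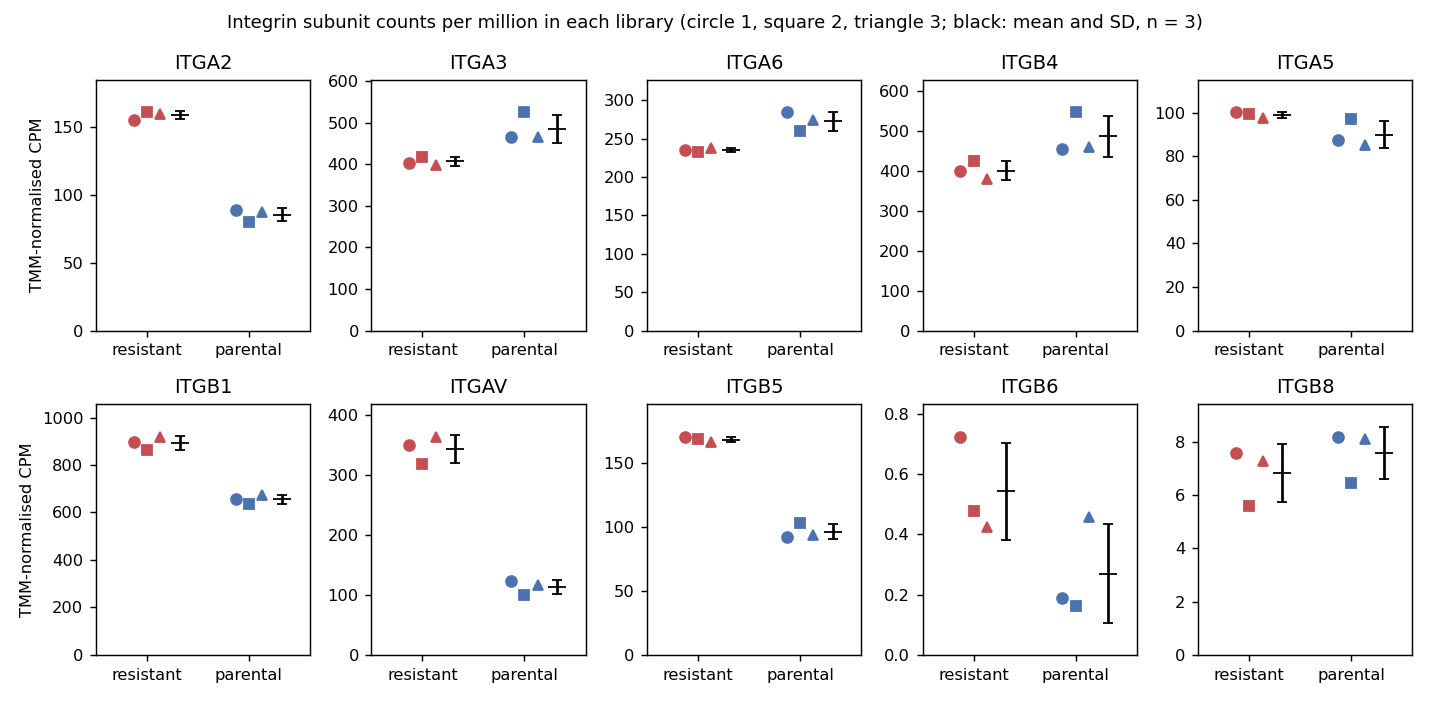
TMM-normalised CPM of each subunit (vertical axes, each from 0) in the 3 resistant and 3 parental libraries, with mean and SD beside the points. Every resistant library lies above every parental library for ITGA2, ITGA5, ITGB1, ITGAV and ITGB5 and below for ITGA3, ITGA6 and ITGB4, and the groups overlap for ITGB6 and ITGB8.

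The resistant and parental libraries did not overlap for 8 of the 10 subunits, 5 with resistant libraries above and 3 with resistant libraries below. Among all tested genes 61.2% did not overlap, 31.3% with resistant above and 29.9% with resistant below. All 10 subunits passed the filter on low counts. ITGB6 passed it through the resistant group, with 3 of 3 resistant libraries and 1 of 3 parental libraries over the limit of 0.381 CPM, so its level in the resistant group was a condition of its being tested.

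The collagen receptor is taken first. ITGA2 (ENSG00000164171.11), the α2 chain that gives the α2β1 receptor its collagen binding, had 155, 161 and 159.8 CPM in resistant replicates 1, 2 and 3, against 88.7, 79.6 and 87.2 CPM in parental replicates 1, 2 and 3. The lowest resistant library stood well above the highest parental one. The mean was 159 ± 2.90 CPM in resistant cells and 85.2 ± 4.85 CPM in parental cells (SD, n = 3 each), a 1.86-fold rise (log2 fold change 0.90 ± 0.05 SE, edgeR adjusted p = 4.1e-08). Its log2 fold change lay between 0.85 and 0.99 under all 16 alternative settings.

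Among the laminin receptors, ITGA3 (ENSG00000005884.18), the α3 chain of α3β1, had 403, 418 and 399 CPM in the resistant libraries, against 466, 524 and 466 CPM in the parental libraries. ITGA6 (ENSG00000091409.15), the α6 chain shared by α6β1 and α6β4, had 236, 233 and 238 CPM in resistant replicates 1, 2 and 3 and 284, 259.8 and 275 CPM in the parental ones. ITGB4 (ENSG00000132470.14), the long-tailed β4 chain of hemidesmosomes, had 399, 425 and 379 CPM in resistant cells, against 455, 547 and 460.2 CPM in parental cells. All 3 laminin-binding chains were lower in every resistant library than in any parental library. Within each group replicate 2 held the highest ITGA3 and ITGB4 but the lowest ITGA6.

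The laminin-binding falls were small. ITGA3 fell 1.19-fold (log2 fold change -0.26 ± 0.05 SE, edgeR adjusted p = 0.0016), ITGA6 fell 1.16-fold (log2 fold change -0.21 ± 0.05 SE, edgeR adjusted p = 0.0019) and ITGB4 fell 1.22-fold (log2 fold change -0.28 ± 0.07 SE, edgeR adjusted p = 0.0076). Without parental replicate 2 the log2 fold changes were -0.20 for ITGA3, -0.25 for ITGA6 and -0.19 for ITGB4, each still called. With library sizes alone ITGA6 missed the threshold (log2 fold change -0.12, edgeR adjusted p = 0.052, in a range of 2.6e-05 to 0.23 over its alternatives). On the authors' length-scaled values (FPKM, used with a pseudocount of 1) ITGA6 and ITGB4 were not called, with limma adjusted p-values of 0.138 and 0.140.

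ITGA5 (ENSG00000161638.11), the α5 chain of the main fibronectin receptor α5β1, had 100.1, 99.2 and 97.3 CPM in the resistant libraries, against 87.6, 97.0 and 85.03 CPM in the parental libraries. The groups did not overlap, but parental replicate 2 lay only just below resistant replicate 3. The log2 fold change was 0.14, with a 95% interval of 0.02 to 0.25, and the edgeR adjusted p of 0.0517 missed the threshold. Without parental replicate 2 the log2 fold change was 0.20 (edgeR adjusted p = 8.6e-04), and 6 of the 16 alternatives put ITGA5 past the threshold, with adjusted p-values of 8.6e-04 to 0.24 over all of them.

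ITGB1 (ENSG00000150093.19), the β1 chain that partners α2, α3, α5, α6 and αv, had 899, 862 and 919 CPM in resistant replicates 1, 2 and 3, against 656, 636 and 676 CPM in parental replicates 1, 2 and 3. It rose 1.36-fold, at 893 ± 28.8 CPM in resistant cells and 656 ± 19.9 CPM in parental cells (SD, n = 3 each; log2 fold change 0.45 ± 0.04 SE, edgeR adjusted p = 6.5e-06). ITGB1-DT, the divergent transcript of ITGB1, was counted 10, 21 and 17 times in the resistant and 7, 5 and 3 times in the parental libraries. ITGA6-AS1, antisense to ITGA6, had 1 count in all libraries together. Whether counting used strand is not given in the sources used here, but these rows are small beside 13269 to 25202 counts of ITGB1 and 5404 to 7990 counts of ITGA6.

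ITGAV (ENSG00000138448.12), the αv chain of all RGD-binding receptors in this group other than α5β1, had 351, 319 and 364 CPM in the resistant libraries, against 124, 99.8 and 116 CPM in the parental libraries. The groups were far apart, and the 3.05-fold rise was the largest of the 10 subunits (log2 fold change 1.61 ± 0.08 SE, edgeR adjusted p = 1.0e-07). Its mean was 345 ± 23.4 CPM in resistant and 113 ± 12.2 CPM in parental cells (SD, n = 3 each), and its log2 fold change lay between 1.52 and 1.70 under all 16 alternatives.

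ITGB5 (ENSG00000082781.12), the β5 chain of the vitronectin receptor αvβ5, had 170.2, 168 and 166 CPM in resistant replicates 1, 2 and 3, against 92.3, 103 and 93.4 CPM in parental replicates 1, 2 and 3. Both chains of αvβ5 were therefore higher in every resistant library. ITGB5 rose 1.75-fold (log2 fold change 0.80 ± 0.05 SE, edgeR adjusted p = 1.1e-07), and it stayed past the threshold in each of the 16 alternatives.

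The β chains of the 2 TGF-β-activating receptors were scarce. ITGB6 (ENSG00000115221.12), the β6 chain, was counted 18, 14 and 11 times in resistant replicates 1, 2 and 3 (0.723, 0.479 and 0.424 CPM), against 5, 5 and 9 times in parental replicates 1, 2 and 3 (0.188, 0.163 and 0.458 CPM). Parental replicate 3 lay above resistant replicate 3, so the groups overlapped. The log2 fold change was 1.09 ± 0.43 (SE), and the edgeR adjusted p of 0.0494 was just under the threshold. The ITGB6 call was lost in 10 of 13 alternatives, with adjusted p-values of 0.013 to 0.53 over all 13. It was lost on leaving out parental replicate 1 (0.16), parental replicate 2 (0.17) or resistant replicate 1 (0.19), 2 (0.081) or 3 (0.060). Without parental replicate 3 the log2 fold change was 1.59 and the edgeR adjusted p 0.013.

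ITGB8 (ENSG00000105855.10), the β8 chain, had 7.59, 5.57 and 7.28 CPM in the resistant libraries, against 8.19, 6.47 and 8.10 CPM in the parental libraries. Replicate 2 was the lowest in both groups, and the groups overlapped. The log2 fold change was -0.15, with a 95% interval of -0.45 to 0.15 (edgeR adjusted p = 0.38). It rested on 159 to 218 counts in a library.

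**Figure D2:**
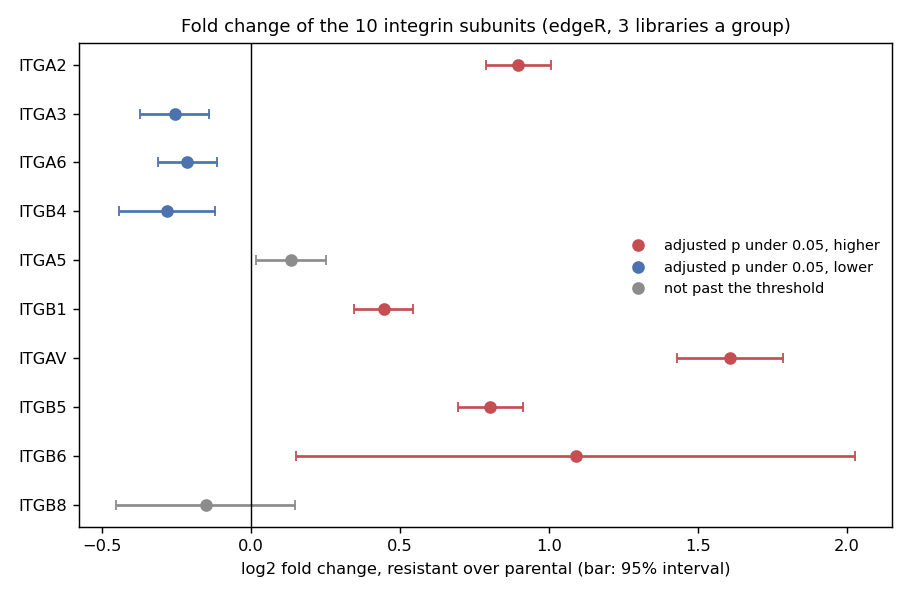
Log2 fold change of each subunit, resistant over parental (horizontal axis), with its 95% interval from edgeR and colour by call. ITGAV lies at 1.61, ITGA2 and ITGB5 at 0.90 and 0.80, the laminin-binding ITGA3, ITGA6 and ITGB4 between -0.28 and -0.21, and the wide interval of ITGB6 runs from 0.15 to 2.03.

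The order of the subunits was read from the authors' FPKM, which scale for gene length, as levels and not as differences between the groups. In resistant cells ITGB1 was the most abundant chain at 280.3 ± 9.36 FPKM. ITGA3 (106 ± 1.95 FPKM) and ITGB4 (103 ± 2.59 FPKM) followed with overlapping ranges, and then ITGB5 at 68.0 ± 1.16, ITGAV at 57.8 ± 1.18, ITGA6 at 54.6 ± 1.57, ITGA5 at 27.6 ± 0.723 and ITGA2 at 22.7 ± 0.590 FPKM. ITGB8 (0.870 ± 0.151 FPKM) and ITGB6 (0.15 ± 0.0608 FPKM) were last (SD, n = 3 throughout).

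In parental cells ITGB1 also led, at 196 ± 7.57 FPKM. ITGA3 (119.9 ± 7.80 FPKM) and ITGB4 (112 ± 7.46 FPKM) again overlapped, followed by ITGA6 at 59.6 ± 3.74, ITGB5 at 38.3 ± 1.76, ITGA5 at 23.8 ± 1.72, ITGAV at 18.0 ± 1.32 and ITGA2 at 11.8 ± 0.469 FPKM. ITGB8 stood at 0.950 ± 0.0954 and ITGB6 at 0.0933 ± 0.0416 FPKM (SD, n = 3 throughout). Neighbours other than ITGA3 and ITGB4 had ranges that did not overlap in either form. ITGAV held rank 5 in resistant cells and rank 7 in parental cells, and ITGA6 held rank 6 in resistant cells and rank 4 in parental cells.

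**Figure D3:**
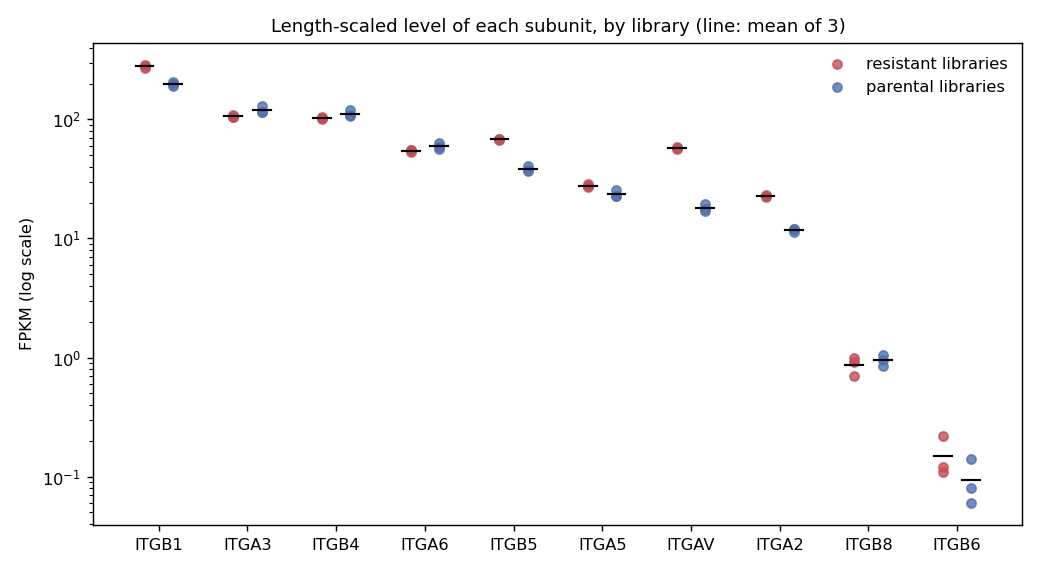
FPKM of each subunit on a log axis, resistant and parental libraries side by side, ordered by the parental mean. ITGB1 is highest at 270.02 to 288.29 FPKM in resistant and 188.88 to 204.02 FPKM in parental libraries, and ITGB8 and ITGB6 lie at or below 1.04 FPKM.

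The mix of mRNAs of the 5 α chains that can pair with β1 differed between the forms, though α6 and αv also pair with other β chains. As a share of the summed FPKM of the 5 α chains, ITGAV made up 21.5% ± 0.619 in resistant and 7.72% ± 0.548 in parental libraries, and ITGA2 8.46% ± 0.171 in resistant and 5.05% ± 0.323 in parental libraries (SD, n = 3 each). ITGA3 made up 39.4% ± 0.270 in resistant and 51.4% ± 2.23 in parental libraries, and ITGA6 20.3% ± 0.404 in resistant and 25.6% ± 1.95 in parental libraries. ITGA5 held 10.3% ± 0.283 in resistant and 10.2% ± 0.487 in parental libraries, a difference smaller than the spread. Taken from counts in place of FPKM, the ITGA5 share was 8.04%, 8.07% and 7.73% in resistant and 8.34%, 9.14% and 8.26% in parental libraries, so its groups separated with resistant below, and its direction is not settled. The shares of both laminin-binding α chains were thus lower, and those of αv and α2 higher, in every resistant library. Shares of a whole move together, so they do not give each chain's own change.

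The summed α level was 268, 272 and 266 FPKM in resistant replicates 1, 2 and 3, against 233, 239.5 and 226 FPKM in parental replicates 1, 2 and 3. ITGB1 over that sum was 1.05, 0.992 and 1.08 in the resistant libraries and 0.841, 0.789 and 0.902 in the parental libraries. ITGB1 mRNA was thus higher relative to the summed α chains in every resistant library. Other α chains, such as ITGA1 and ITGA7, were not in the sum. These are mRNA levels, and the assembled receptors were not measured.

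The balance of each of 9 receptor pairs was compared as the log2 ratio of α to β counts within a library, which no library scaling can move. The exact two-sided permutation test of 3 against 3 libraries cannot give a p below 0.10, which becomes 0.129 when adjusted over the 9 pairs, so no pair could pass. The α2 to β1 ratio was -2.49 ± 0.0606 in resistant and -2.95 ± 0.0551 in parental libraries on the log2 scale, a difference of 0.45. For α3 to β1 it was -1.13 ± 0.0817 in resistant and -0.44 ± 0.139 in parental libraries, a difference of -0.70, and for α6 to β1 the difference was -0.66. The α5 to β1 ratio differed by -0.31. These shifts in the β1 pairs reached the smallest possible exact permutation p of 0.10.

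Within the αv receptors the α chain gained on β1 by 1.16, on β5 by 0.80 and on β8 by 1.77 on the log2 scale, each at the smallest exact permutation p of 0.10. Per length ITGAV was 0.851 ± 0.0317 of ITGB5 in resistant cells and 0.472 ± 0.0512 in parental cells (SD, n = 3 each). The αv to β6 difference of 0.48 had an exact permutation p of 0.40, with few β6 counts. The α6 to β4 ratio was -0.77 ± 0.0979 in resistant and -0.83 ± 0.212 in parental libraries, a difference of 0.07 (exact permutation p = 0.80). On FPKM that difference was -0.0024 and without parental replicate 2 it was -0.05, so its sign is not settled.

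**Figure D4:**
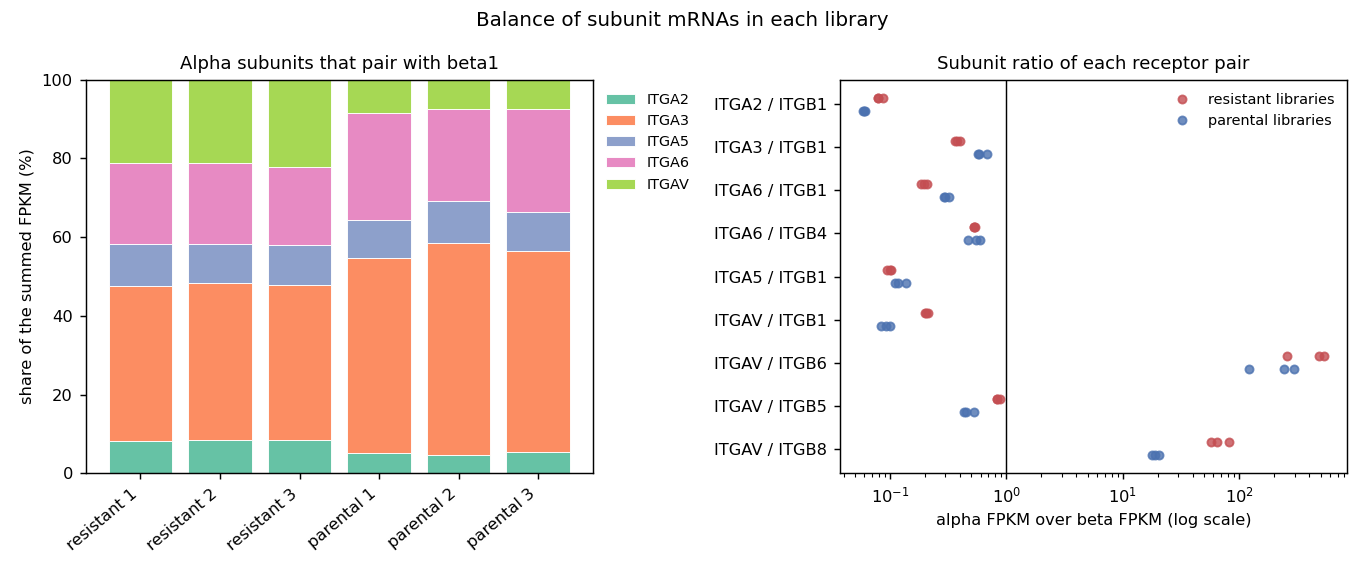
Left, the share of each α chain in the summed FPKM of the 5 α partners of β1, by library (bars of 1 library each). Right, α FPKM over β FPKM for the 9 receptor pairs on a log axis, resistant above parental in each row. ITGAV takes 21.1% to 22.2% in resistant and 7.32% to 8.35% in parental libraries, and the ITGA6 over ITGB4 ratios of the forms overlap.

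ITGAV and ITGA6, with ITGB6 and ITGA4, lie on the long arm of chromosome 2, as does the mismatch repair gene PMS1. The log2 fold changes were 1.61 for ITGAV and -0.21 for ITGA6, beside 2.18 for PMS1. The ITGA6 call was lost in 4 of 16 alternatives. ITGB6 had 1.09, with overlapping groups and a call lost in 10 of 13 alternatives, and ITGA4 was too low to test. Any part of their shared position was not tested.

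The genes whose 6-library profile lay nearest to ITGAV, by Euclidean distance of centred log2 CPM among 11606 genes of at least 5 CPM, were BIRC3 (distance 0.0654), AADAC (0.173) and DOCK4 (0.179). With 2 groups of libraries much of this likeness is the group difference itself, which was 1.64, 1.51 and 1.62 on the log2 scale for these genes. For ITGB6 the nearest 3 lay farther off, at distances of 0.864 (RP5-1024G6.8), 0.883 (FOXD1) and 0.895 (MEX3B).

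Of 17 other integrin genes 10 had enough counts to test, with 5 higher, 2 lower, 3 short of the threshold and a median log2 fold change of 0.41. ITGA1, the α1 chain of the other widespread collagen receptor α1β1, had 16.1, 16.6 and 18.0 CPM in resistant replicates 1, 2 and 3, against 2.37, 2.34 and 1.58 CPM in parental replicates 1, 2 and 3. ITGA1 rose 7.89-fold (log2 fold change 2.98 ± 0.13 SE, edgeR adjusted p = 3.6e-09; 1.65 on FPKM with a pseudocount of 1), so both tested α chains of the widespread collagen receptors were higher. ITGA10, a further collagen-binding chain, rose at a low level, 2.79 ± 0.193 CPM in resistant and 1.83 ± 0.221 CPM in parental cells (SD, n = 3 each; edgeR adjusted p = 0.0076).

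ITGA7, another laminin-binding α chain, fell to 8.41 ± 0.977 CPM in resistant cells, against 17.1 ± 1.03 CPM in parental cells (SD, n = 3 each; log2 fold change -1.03, edgeR adjusted p = 2.6e-06). ITGA9 also fell, to 0.656 CPM in resistant cells, against 1.40 CPM in parental cells. ITGAE, which pairs with β7 in intraepithelial lymphocytes, rose by 0.21 on the log2 scale, a call lost with DESeq2 (adjusted p = 0.075, in a range of 9.0e-04 to 0.075 over its alternatives), and ITGBL1, an integrin-like secreted protein, rose by 0.84. ITGAM, a leukocyte chain, rose by 1.02, at 1.67 CPM in resistant and 0.821 CPM in parental cells. The ITGAM call was lost in all 3 FPKM fits (log2 fold changes 0.23, 0.60 and 0.23, limma adjusted p-values 0.37, 0.38 and 0.48, in a range of 5.1e-04 to 0.48 over its alternatives). Untested for low counts were ITGA4, counted 6, 8 and 9 times in resistant and 0, 0 and 1 times in parental libraries, and ITGB2, counted 4, 3 and 6 times in resistant libraries and not at all in parental libraries. ITGB3, the β3 partner of αv, was at 0.554 ± 0.222 CPM in resistant and 0.356 ± 0.120 CPM in parental cells and did not pass the threshold (edgeR adjusted p = 0.21).

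Ligand genes were tested from a list of 24 collagens, laminins and a netrin, of which 20 had enough counts. Of these 11 were higher and 3 lower, 6 missed the threshold, and the median log2 fold change was 0.27. The shares over all tested genes were 27.3% higher and 26.5% lower. COL4A1 and COL4A2, both among the 11, passed the low-count filter through the resistant group. With a filter of at least 1 CPM in 3 libraries 9 were higher and 3 lower. LAMA3 and LAMB3, which encode laminin chains bound by α3β1 and α6β4, did not pass the threshold. LAMA3 had a log2 fold change of -0.08 and LAMB3 of 0.07 (edgeR adjusted p-values of 0.43 and 0.31), and the sign of LAMA3 turned with library sizes alone. Without parental replicate 2 LAMB3 passed the threshold (log2 fold change 0.13, edgeR adjusted p = 0.024, in a range over its alternatives of 0.022 to 0.77). LAMA5, the α5 chain of the basement membrane laminins, fell to 331 ± 21.0 CPM in resistant cells, against 416 ± 26.5 CPM in parental cells (SD, n = 3 each; log2 fold change -0.33, edgeR adjusted p = 5.4e-04). On unfiltered FPKM LAMA5 missed the threshold (log2 fold change -0.22, limma adjusted p = 0.079, in a range of 1.0e-09 to 0.079 over its alternatives).

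LAMA4, the laminin α4 chain, rose 4.33-fold (21.7 ± 0.901 CPM in resistant and 4.998 ± 0.235 CPM in parental cells), COL4A6, a basement membrane collagen, rose by 1.63 on the log2 scale, and COL7A1, the anchoring fibril collagen, rose by 0.97. NTN4, a laminin-related netrin, rose by 1.57. NTN4 had the highest edgeR adjusted p of the 4, at 2.0e-06. COL1A1 rose to 41.7 ± 2.91 CPM in resistant cells, against 24.3 ± 1.79 CPM in parental cells, and made up most of the summed fibroblast markers (40.6 to 46.7 CPM in resistant and 21.9 to 25.0 CPM in parental libraries). Its partner chain COL1A2 and the fibroblast markers DCN and LUM were at or near 0, whereas PDGFRB and COL3A1 were higher in every resistant library, with the counts given above. Their part in the COL1A1 rise was not tested.

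Of 24 RGD and TGF-β latency ligands and their releasing proteases 19 were tested, with 11 higher, 4 lower, 4 short of the threshold and a median log2 fold change of 0.41. With library sizes alone 11 rose and 2 fell. FN1, the fibronectin gene, had 61.7, 67.8 and 61.2 CPM in resistant replicates 1, 2 and 3, against 21.6, 23.1 and 22.4 CPM in parental replicates 1, 2 and 3, a rise of 1.51 ± 0.06 (SE) on the log2 scale (edgeR adjusted p = 2.5e-09). Fibronectin is a ligand of α5β1 and of αv receptors. CCN2, a matricellular ligand of integrins, rose by 2.71 (49.4 ± 1.18 CPM in resistant and 7.50 ± 0.501 CPM in parental cells) and SPP1, the RGD protein osteopontin, by 2.43, each on the log2 scale with edgeR adjusted p-values of 4.6e-11 and 5.0e-09. L1CAM, an adhesion molecule that binds RGD integrins, fell to 15.4 ± 0.795 CPM in resistant cells, against 34.7 ± 1.29 CPM in parental cells. VTN, the vitronectin gene, had at most 1 count in a library.

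The latent TGF-β genes went both ways. TGFB2 and TGFB3 rose at low levels, to 2.27 and 2.22 CPM in resistant cells, against 0.607 and 1.45 CPM in parental cells, and LTBP1, a latency binding protein, rose by 0.87 on the log2 scale. LTBP3 and LTBP4 fell by 0.17 and 0.25 on the same scale (edgeR adjusted p-values of 0.0073 and 6.0e-04). Neither call held on unfiltered FPKM, where L1CAM was the only fall left in the list. At least 1 of these calls was also lost with library sizes alone, where the list kept 2 falls. TGFB1 was not analysed here.

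**Figure D5:**
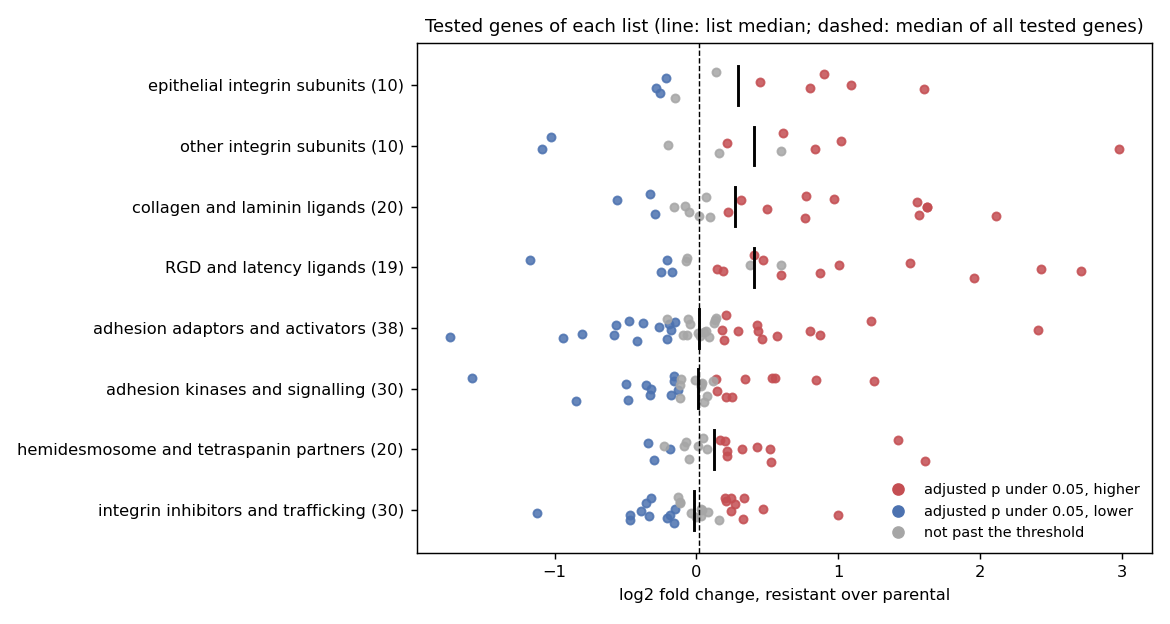
Log2 fold change (horizontal axis) of every tested gene of the integrin subunits and 7 related lists, coloured by call, with the number tested in brackets. List medians run from -0.02 for inhibitors and trafficking to 0.41 for the RGD and latency ligands, and the dashed line marks the median of all tested genes at 0.02.

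The cytoplasmic adaptors that link β tails to actin were mixed. Of 39 adaptors and activators 38 were tested, with 12 higher, 13 lower, 13 short of the threshold and a median log2 fold change of 0.02. With library sizes alone 16 rose and 8 fell. FERMT1, the epithelial kindlin that binds and activates β1 and β6 tails, had 169 ± 2.59 CPM in resistant and 72.02 ± 4.28 CPM in parental cells (SD, n = 3 each; log2 fold change 1.23, edgeR adjusted p = 3.0e-09). FERMT2, the kindlin of most other tissues, rose by 0.57. TLN2, one of the talins that activate integrins, rose by 0.87, whereas TLN1, the other, fell by 0.19 (edgeR adjusted p = 0.012). PDLIM5 fell by 0.94 and PDLIM7 rose by 0.80, both LIM proteins of the actin cytoskeleton, and PPFIBP1, a liprin of focal adhesions, fell by 0.58 on the log2 scale. TNS1, a tensin that binds β tails, fell by 0.80, a call lost in all 3 FPKM fits (log2 fold changes -0.39, -0.58 and -0.39, limma adjusted p-values 0.066, 0.060 and 0.12, in a range of 5.8e-19 to 0.12 over its alternatives).

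Adhesion kinases and their partners were likewise mixed, with 9 of 30 tested genes higher, 11 lower and 10 not past the threshold, and a median log2 fold change of 0.01. With library sizes alone 13 rose and 7 fell. PTK2, the focal adhesion kinase, fell to 126 ± 1.98 CPM in resistant cells, against 178 ± 1.25 CPM in parental cells (SD, n = 3 each; log2 fold change -0.49, edgeR adjusted p = 1.2e-06). CAV1, the caveolin that couples integrins to Src-family kinases, fell to 225 ± 2.87 CPM in resistant cells, against 676 ± 9.44 CPM in parental cells (log2 fold change -1.59, edgeR adjusted p = 6.6e-11), and the adaptor SHC1 fell by 0.85. FYN, a Src-family kinase, rose by 1.25 on the log2 scale (edgeR adjusted p = 1.7e-08), and ARHGEF6, an exchange factor for Rac, rose by 0.84.

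The hemidesmosome and membrane partners comprised 23 genes, of which 20 were tested. Of these 10 were higher, 3 lower and 7 short of the threshold, with a median log2 fold change of 0.12. The shares over all tested genes were 27.3% higher and 26.5% lower. PLEC, the plectin that links β4 to keratins, fell by 0.19 to 987 ± 43.1 CPM in resistant cells, against 1124 ± 55.0 CPM in parental cells, and DST, whose epithelial form is another hemidesmosome plaque protein, fell by 0.30 (edgeR adjusted p-values of 0.0083 and 2.5e-04). Falls called in the list numbered 2 with library sizes alone, 1 on FPKM with a pseudocount of 1 and 0 on unfiltered FPKM. The PLEC and DST calls were thus both lost in the last of these fits. COL17A1, the transmembrane hemidesmosome collagen, was at 2.40 ± 0.374 CPM in resistant and 2.80 ± 0.308 CPM in parental cells (edgeR adjusted p = 0.28). CD151, the tetraspanin that binds α3β1 and α6 integrins, had a log2 fold change of -0.07 (edgeR adjusted p = 0.52). TSPAN14 rose by 1.42 and TSPAN1 by 1.61, both tetraspanins, and CD47, a partner of αv integrins, rose by 0.52. The tetraspanin CD82 rose by 0.53 and SLC3A2, the CD98 heavy chain that binds β1 tails, by 0.32.

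Among inhibitors and trafficking proteins 9 of 30 tested genes were higher, 11 lower and 10 short of the threshold, with a median log2 fold change of -0.02. The shares over all tested genes were 27.3% higher and 26.5% lower. With library sizes alone 12 rose and 6 fell, so 66.7% of calls were higher, beside 65.3% over all tested genes. DAB2, an endocytic adaptor of β1 integrins, rose to 19.9 ± 0.752 CPM in resistant cells, against 9.98 ± 0.999 CPM in parental cells. RAB25, an epithelial GTPase that recycles α5β1, fell to 17.1 ± 0.694 CPM in resistant cells, against 36.9 ± 6.52 CPM in parental cells (SD, n = 3 each; edgeR adjusted p = 3.8e-05). SHARPIN, which holds β1 integrins inactive, and RAB11B, a recycling GTPase, each fell by 0.47. ITGB1BP1, an inhibitor that binds the β1 tail, was at 0.04 on the log2 scale, with a 95% interval of -0.07 to 0.14 (edgeR adjusted p = 0.56).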

How the data were processed

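One deposited table holds whole, unscaled read counts for each gene. A second holds values scaled by the authors, taken here as FPKM from the values themselves (2 decimals, column sums that differ, a ratio to CPM that differs between genes), since its header names no unit. That ratio also varied between libraries for a single gene, so the tables were not scaled alike. For the aligner, counting program, annotation and strandedness, the sources used here give nothing. The submitters' processing notes name mouse builds, but 30616 of 31456 rows carry human Ensembl identifiers, so no coordinates were used. Another 840 rows are gene models without such an identifier. Samples were grouped by title and matched to columns by description.

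The counts were tested across all genes with edgeR 4.0.16 in R 4.3.3 (TMM, filterByExpr, robust glmQLFit and glmQLFTest, two-sided, Benjamini-Hochberg, threshold 0.05). CPM are TMM-normalised except the marker sums, which use library totals. Standard errors were taken from the F statistic, and 95% intervals use the moderated degrees of freedom. Intervals cover the spread between these libraries. Alternatives were DESeq2 1.42.0, limma-voom (limma 3.58.1), limma on log2(FPKM + pseudocount), other scalings and filters, the replicate number as a block, and each library left out.

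The members, lists and tests were chosen with earlier results of these data known. The text names the members, for each list up to 4 genes of smallest adjusted p and up to 4 of largest called change with a mean of at least 5 CPM, a few set ligands (FN1, VTN, LAMA3, LAMB3, LAMA5), and the 3 nearest profiles of the 2 most changed members. ITGA4, ITGB2, ITGB3, ITGA9, ITGA10, ITGB1-DT, ITGA6-AS1, PMS1, COL1A1, COL3A1, PDGFRB, CD68, TEK, TGFB2, TGFB3, LTBP1, LTBP3, LTBP4, FERMT2, TLN1, PLEC, DST, COL17A1, CD151 and ITGB1BP1 were named after their values were seen. 1 ligand gene of the lists is not reported here.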

Additional observations from a re-analysis of the deposited data

How the results depend on the processing

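The calls of ITGAV, ITGA2, ITGB5 and ITGB1 held under all 16 alternatives, and no subunit changed sign. On FPKM with a pseudocount of 1, a pseudocount of 0.1 or no filter (limma), the subunits called lower numbered 1, 1 and 0 in place of 3, and ITGA3 had an adjusted p of 0.089 with no filter. The genes called lower across the table numbered 2637, 2659 and 2157 in these fits, in place of 4399. The cause was not tested. The α6 to β4 difference reversed to -0.0024 on FPKM and ranged from -0.055 to 0.14 when single libraries were left out. LAMA3 reversed to 0.014 with library sizes alone and to 0.12, 0.16 and 0.12 on FPKM. On FPKM the called falls were 5 in place of 13 for adaptors, 5 or 6 in place of 11 for kinases, 4 or 5 in place of 11 for trafficking, 0 or 1 in place of 3 for hemidesmosome partners and 1 in place of 2 for other integrins. With no filter they were 1 in place of 3 for collagen and laminin ligands and 1 in place of 4 for RGD ligands, and trafficking rises were 5 in place of 9. Other integrin rises were 3 in place of 5 with either pseudocount. On FPKM with a pseudocount of 1, the log2 fold changes of COL4A6, COL7A1, ITGBL1 and TLN2 were 1.01, 0.57, 0.53 and 0.57, each still called. Deviations from the group means correlated weakly between same-numbered libraries (0.0741, 0.136 and 0.0103 for replicates 1, 2 and 3). Between unlike numbers the correlations ran from -0.146 to 0.0945, so replicate 2 had the highest of all. Whether same-numbered libraries share a replicate effect was not tested. With the replicate block 9973 genes were called in place of 8933, with 5 subunits higher (ITGA5 in, ITGB6 out) and 3 lower. Depth limits ITGB6, at 5 to 18 counts a library.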
